A study of Mus musculus with 30 samples.

Results

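The 10 genes described here encode proteins of dense core granules and the enzymes that turn prohormones into active peptides inside them: the granins Chga, Chgb, Scg2 and Scg3, the neuropeptide precursor Vgf, the prohormone convertases Pcsk1 and Pcsk2, the convertase chaperone Scg5, the carboxypeptidase Cpe and the amidating enzyme Pam. They were chosen by name for these functions and found by Ensembl gene identifier among 48795 genes in the table of read counts, and all 10 passed the low-count filter. The 30 RNA-seq libraries came from neuron-enriched primary cultures of the dorsal root ganglion (DRG) of C57/Bl6 wild-type mice, whose age and sex the labels do not give. PHP.S, an adeno-associated virus capsid that favours sensory neurons, had delivered A-Fos, a dominant negative of the transcription factor AP-1, to the DN libraries and GFP to the vector controls, while untransduced libraries came from culture parts without virus. There were 10 libraries per condition. By the series design, each mouse gave 1 culture that was split over all 3 conditions. No label ties a library to its mouse; equal replicate numbers were taken to mark 1 culture, and counts of cultures below rest on that reading. Titles separated the cultures into a plain set (replicates 1 to 3), a 7DIV set (replicates 4 to 6, 7 days in vitro) and a dated set (replicates 7 to 10). Titles of DN and GFP libraries carry the prefix phps in the 7DIV set only. The labels name neither the promoter of the vectors nor the dose of virus, and beyond the titles they do not describe how the sets differ.

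Dense core granules store peptides until a stimulus releases them. Granins aggregate in the trans-Golgi network and help to load the granule. Convertases then cut prohormones at pairs of basic residues, Cpe trims the exposed basic residues and Pam amidates the end of many peptides. Peptidergic nociceptors of the DRG use this route for substance P and calcitonin gene-related peptide. A-Fos pairs with Jun proteins and keeps them off AP-1 sites, and several granule genes are known to respond to the cyclic AMP response element (CRE), a motif related to the AP-1 site that is bound by CREB and by some Jun-containing dimers.

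Motifs of this family were looked for near the start sites. In RefSeq promoters of GRCm38.p6, which run from 250 bases before to 50 bases after the start site, 8 of the 10 genes had an entry, and Cpe and Vgf were not among them. Both strands were searched for 3 motifs. The full CRE, TGACGTCA, occurred in the promoters of Scg2, Chgb and Pcsk1, and in 1.79% of all 32851 promoters. The shorter core TGACG, which lies within the full CRE and so overlaps it, occurred in 7 of the 8, the exception being Pam, and in 20.8% of all promoters. The AP-1 letters TGANTCA occurred in none of the 8 and in 7.81% of all promoters. A match says only that the letters are there. The windows below show the full CRE, or the core where there was no full CRE, in capitals in 30 bases, 5′ to 3′ on the strand of the gene. Windows of Scg5 and Pcsk2, and further core matches in Pcsk1 and Scg5, are not printed.
Scg2: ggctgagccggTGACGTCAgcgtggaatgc
Chgb: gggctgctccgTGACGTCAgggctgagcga
Pcsk1: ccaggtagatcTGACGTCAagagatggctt
Chga: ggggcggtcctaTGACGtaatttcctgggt
Scg3: gcgctgggtcgcTGACGccatcctcacgcc
These windows lie at chr1:79440076-79440105 (Scg2, minus strand), chr2:132781559-132781588 (Chgb, plus), chr13:75089768-75089797 (Pcsk1, plus), chr12:102554885-102554914 (Chga, plus) and chr9:75684069-75684098 (Scg3, minus). The motif began 68 bases before the RefSeq start site in Scg2, 72 in Chgb, 78 in Pcsk1, 44 in Chga and 30 in Scg3. GENCODE M21 starts Scg2 and Chgb further upstream, so that all 30 bases of both windows lie in an annotated exon there. The 3 genes with a full CRE did not share a direction below: Scg2 was higher in DN than in GFP libraries, Pcsk1 was lower, and Chgb did not pass the test.

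Library totals, in units of 1000000 counts, ranged from 24.1 to 39.1, apart from untransduced replicate 4 of the 7DIV set with 10.7. That library also held 37657 counts per 1000000 (CPM) of the nuclear RNA Malat1, against 1875 to 8316 CPM in the other 29. It enters the comparisons with untransduced libraries over all sets and in the 7DIV set. Only some of those results are also given without it. Levels are CPM scaled by TMM factors, and fold changes are log2 estimates from edgeR's quasi-likelihood test. The test gives no standard error (SE), so the SE was derived as the absolute log2 estimate divided by the square root of the F value. A gene passed the test at a Benjamini-Hochberg adjusted p under 0.05 over all 18063 genes tested. Fos itself was at 36.3 ± 4.04 CPM in DN and 37.6 ± 3.43 CPM in GFP libraries (SD, n = 10), a log2 difference of -0.05 (adjusted p = 0.760), and the transgenes were not analysed here.

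Of the 10 genes, 5 passed the test between DN and GFP libraries, against 11.4% of all genes tested. Scg3, Scg2 and Chga were higher in DN libraries and Pcsk1 and Vgf were lower. The other 5, Chgb, Pcsk2, Scg5, Cpe and Pam, had log2 differences between -0.10 and 0.04. The calls were thus 3 upward and 2 downward, and the members' median log2 difference was -0.0080 beside -0.00086 over all genes, of which 1442 were higher and 612 lower. In bulk RNA, fewer cells of a type and less RNA per cell cannot be told apart.

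**Figure D1:**
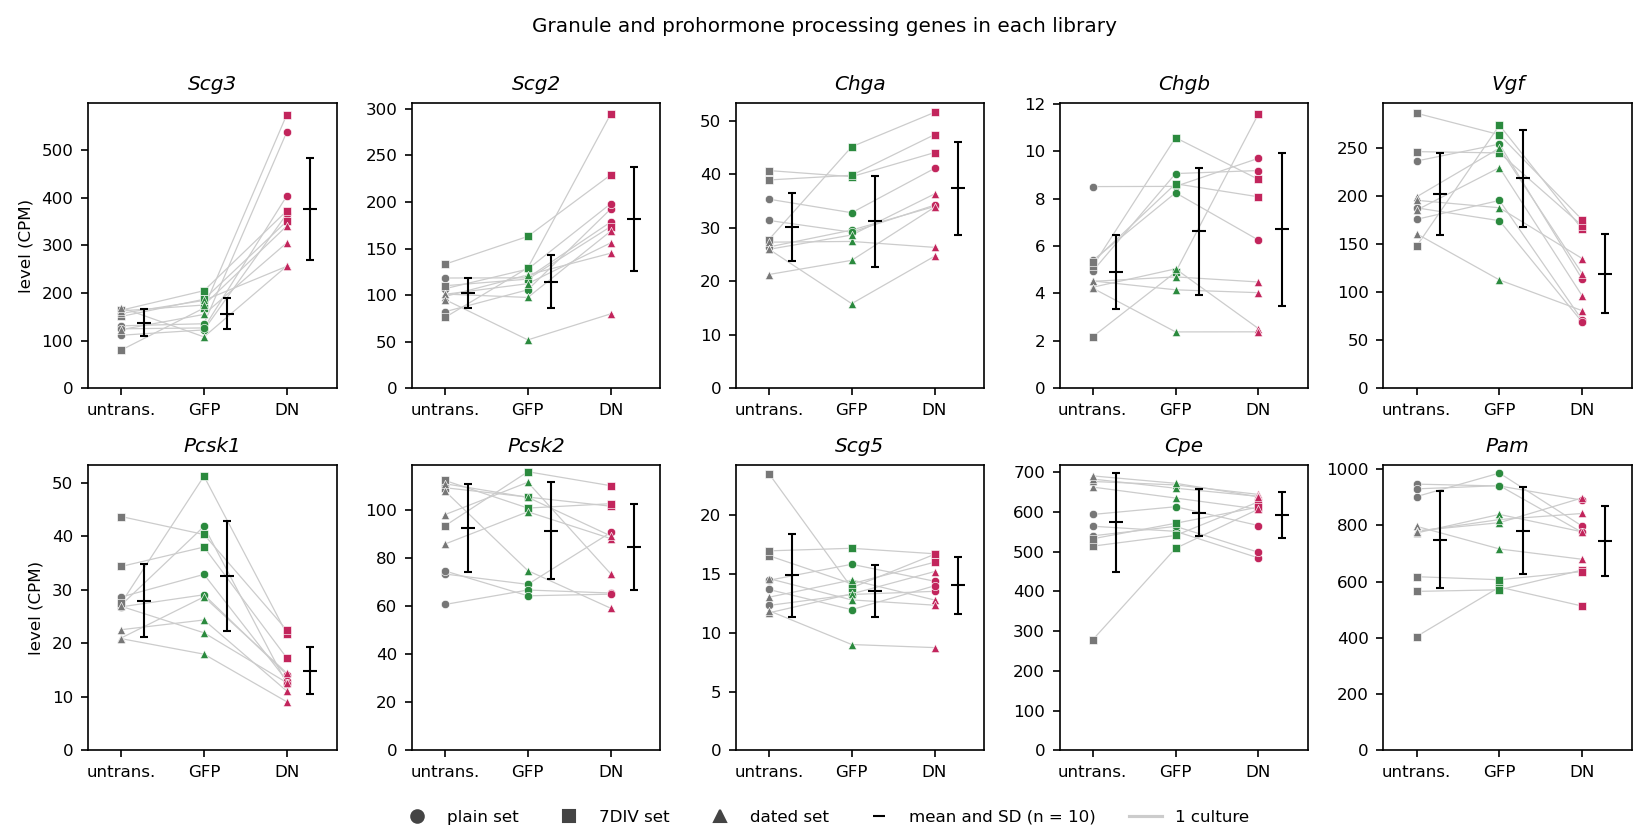
Level (CPM) of each of the 10 genes in every library, by condition, with the marker shape giving the culture set, grey lines joining the libraries of 1 culture, and the black bars giving mean and SD (n = 10 per condition). Scg3 in DN libraries (256 to 574 CPM) lies wholly above GFP libraries (108 to 205 CPM), Pcsk1 and Vgf fall in every culture from GFP to DN, and the ranges of Cpe and Pam over all sets overlap between conditions.

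Scg3 encodes secretogranin III, which binds chromogranin A and anchors granin aggregates to the cholesterol-rich granule membrane. The gene (ENSMUSG00000032181) lies on the minus strand at chr9:75643189-75684056 (GRCm38). GFP libraries held 136, 123 and 127 CPM in the plain set, 169, 205 and 187 in the 7DIV set, and 155, 184, 175 and 108 in the dated set. DN libraries held 538, 366 and 404 CPM in the plain set, 574, 372 and 351 in the 7DIV set, and 305, 256, 341 and 257 in the dated set. Every DN library stood above every GFP library and above every untransduced library. Untransduced levels ran from 80.1 CPM in replicate 4, the shallow library, to 169 CPM. Scg3 rose 2.41-fold from GFP to DN (log2 1.27, SE 0.15, adjusted p = 3.07e-06 by edgeR, higher in 10 of 10 cultures), the largest rise among the 10 genes. Against untransduced libraries the log2 difference was 1.44 (SE 0.16, edgeR adjusted p = 7.35e-07), again higher in 10 of 10 cultures.

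Scg2, secretogranin II, is the precursor of the peptide secretoneurin and was the second gene to rise. It lies on the minus strand at chr1:79434669-79440120 (ENSMUSG00000050711). Levels in GFP libraries were 119, 106 and 128 CPM in the plain set, 129, 117 and 163 in the 7DIV set, and 112, 122, 97.6 and 52.0 in the dated set. Those in DN libraries were 179, 193 and 198 CPM in the plain set, 294, 174 and 229 in the 7DIV set, and 156, 145, 169 and 79.9 in the dated set. Replicate 10 of the dated set was lowest in both conditions, and DN replicates 7, 8 and 10 lay below the highest GFP library, so the ranges overlapped, but each culture was higher with DN than with GFP. The rise was 1.58-fold (log2 0.66, SE 0.12, adjusted p = 5.10e-04 by edgeR, 10 of 10 cultures). Untransduced libraries ran from 76.1 CPM in replicate 4, the shallow library, to 133 CPM. Against them, Scg2 rose by log2 0.76 (SE 0.12, edgeR adjusted p = 1.16e-04) and was higher in 9 of 10 cultures.

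Chga and Chgb, the chromogranins that make up much of the granule matrix in endocrine cells, were among the scarcer transcripts. Chga (ENSMUSG00000021194, plus strand, chr12:102554969-102565028) ran from 15.8 to 45.2 CPM in GFP libraries with a median of 29.4, and from 24.7 to 51.6 CPM in DN libraries with a median of 35.3. The ranges overlapped widely, and 9 of 10 cultures were higher with DN. Chga rose 1.21-fold (log2 0.27, SE 0.08, edgeR adjusted p = 0.0316), and against untransduced libraries it rose by log2 0.29 (SE 0.08, edgeR adjusted p = 0.0207, higher in 8 of 10 cultures). The call between DN and GFP was lost in 9 of 17 alternative analyses, with adjusted p between 0.00246 and 0.0882 over all of them: with upper-quartile scaling, without the low-count filter, and without replicate 1, 2, 3, 5, 6, 7 or 9. The call against untransduced libraries was lost in 3 of 16, without replicate 2, 7 or 9 (adjusted p = 0.00291 to 0.0802 over all 16).

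Chgb (ENSMUSG00000027350, plus strand, chr2:132781278-132795079) had the lowest level per length of the 10 genes in all 3 conditions, with 2.38 to 10.6 CPM in GFP libraries and 2.38 to 11.6 CPM in DN libraries. It was higher with DN in 4 of 10 cultures and lower in 6, and the log2 difference was -0.01 with an SE of 0.20 (edgeR adjusted p = 0.990). That SE was the largest among the 10 genes. Counts of Chgb ran from 26 reads in untransduced replicate 4 to 350 in DN replicate 4.

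Vgf encodes a secreted precursor that nerve growth factor induces and that is cut into several neuropeptides. The gene (ENSMUSG00000037428) lies on the plus strand at chr5:137026392-137033351. GFP libraries held 254, 196 and 175 CPM in the plain set, 274, 245 and 264 in the 7DIV set, and 250.2, 229.9, 188 and 113 in the dated set. DN libraries held 114, 70.9 and 68.8 CPM in the plain set, 166, 169 and 175 in the 7DIV set, and 119, 96.2, 135 and 80.8 in the dated set. Each culture was lower with DN, although the ranges overlapped. All DN libraries of the 7DIV set, replicate 1 of the plain set and replicates 7 and 9 of the dated set lay above the lowest GFP library. That was replicate 10 of the dated set, so the ranges also overlapped within this set. Vgf fell 1.87-fold (log2 -0.90, SE 0.11, adjusted p = 4.29e-06 by edgeR, lower in 10 of 10 cultures). Relative to untransduced libraries it was lower in 9 of 10 cultures (log2 -0.81, SE 0.11, edgeR adjusted p = 2.00e-05), the exception being replicate 4, whose untransduced library was the shallow one.

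Pcsk1 and Pcsk2 are the convertases of the regulated secretory pathway, and only Pcsk1 passed the test between DN and GFP libraries. Pcsk1 (ENSMUSG00000021587) lies on the plus strand at chr13:75089826-75134861. In GFP libraries it was at 32.9, 29.1 and 41.8 CPM in the plain set, 51.2, 38.0 and 40.3 in the 7DIV set, and 28.7, 24.3, 21.95 and 18.0 in the dated set. In DN libraries it was at 13.0, 14.1 and 12.4 CPM in the plain set, 21.8, 17.3 and 22.4 in the 7DIV set, and 14.4, 11.1, 12.6 and 9.075 in the dated set. Within each set every DN library was below every GFP library, while the ranges over all sets overlapped because the 7DIV set was higher and the dated set lower in both conditions. Pcsk1 fell 2.19-fold (log2 -1.13, SE 0.09, adjusted p = 9.39e-09 by edgeR, lower in 10 of 10 cultures), the largest fall among the 10 genes and the smallest p. Untransduced libraries ran from 20.9 to 43.7 CPM, and DN was below them by log2 -0.94 (SE 0.09, edgeR adjusted p = 1.20e-07, lower in 10 of 10 cultures).

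Pcsk2 (ENSMUSG00000027419, plus strand, chr2:143546156-143816285) ran from 64.4 to 116 CPM in GFP libraries with a median of 100.1, and from 59.2 to 110.2 CPM in DN libraries with a median of 88.8. The ranges overlapped almost completely, with 3 cultures higher and 7 lower with DN (log2 -0.10, SE 0.08, edgeR adjusted p = 0.542). Exons of the antisense genes Pcsk2os1 and Pcsk2os2 overlap those of Pcsk2 by 260 and 99 bases, and without known strandedness their reads cannot be separated from those of Pcsk2; the antisense genes themselves held at most 65 and 2 counts in a library.

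**Figure D2:**
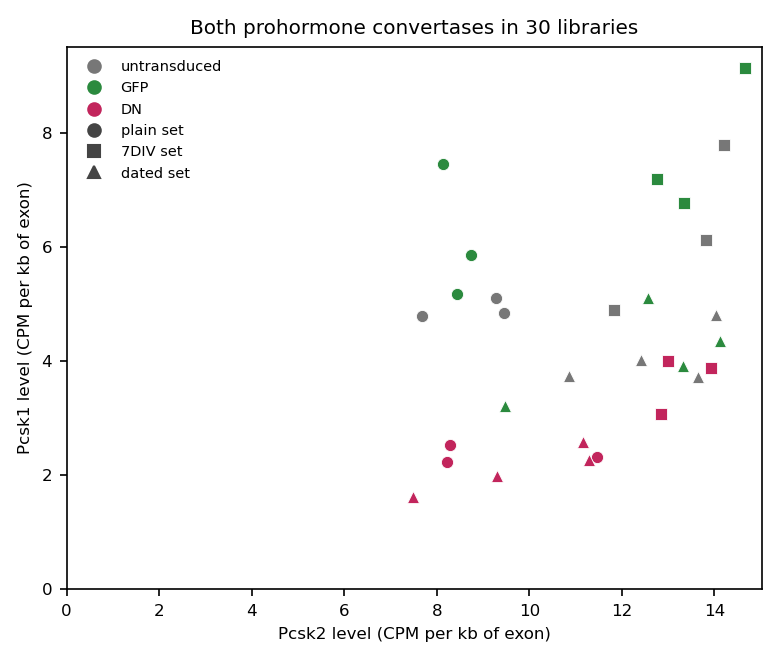
Level of Pcsk1 against level of Pcsk2, both in CPM per kb of exon, in 30 libraries, coloured by condition with the marker shape giving the culture set. DN libraries lie at the bottom of the plot at Pcsk2 levels shared with the other conditions, with Pcsk1 at 1.62 to 4.00 in DN, 3.21 to 9.13 in GFP and 3.72 to 7.79 in untransduced libraries.

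Per kb of exon, the ratio of Pcsk2 to Pcsk1 was 2.45 ± 0.675 in untransduced, 2.16 ± 0.803 in GFP and 4.16 ± 0.667 in DN libraries (SD, n = 10). It ran from 1.09 to 3.40 in GFP, from 1.61 to 3.67 in untransduced and from 3.24 to 5.00 in DN libraries. The GFP and DN ranges met only at their ends, and the untransduced range reached further into that of DN. The ratio also differed by set, with GFP at 1.09 to 1.63 in the plain and 2.46 to 3.40 in the dated set. Between DN and GFP it mostly restates the fall of Pcsk1, as the plot of both convertases shows. It was given no test of its own.

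Of the proteins that bind the convertases, Scg5 did not pass and the inhibitor Pcsk1n did. Scg5, a small chaperone that Pcsk2 needs to become active, was at 13.6 ± 2.20 CPM in GFP and 14.0 ± 2.41 CPM in DN libraries (SD, n = 10), with 5 cultures higher and 5 lower (log2 0.04, SE 0.08, edgeR adjusted p = 0.836). It lies on the minus strand at chr2:113776362-113829121 (ENSMUSG00000023236). Among inhibitors, Pcsk1n, whose product proSAAS inhibits Pcsk1, was lower in DN libraries (log2 -0.35, SE 0.09, edgeR adjusted p = 0.0110). Thus a lower level was seen for both Pcsk1 and its inhibitor, and neither Pcsk2 nor its chaperone passed the test.

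Cpe and Pam act after the convertases and were abundant in all 3 conditions. Cpe (ENSMUSG00000037852, minus strand, chr8:64592542-64693054) was at 598 ± 58.8 CPM in GFP and 592 ± 57.8 CPM in DN libraries (SD, n = 10; log2 -0.01, SE 0.09, edgeR adjusted p = 0.977). Pam (ENSMUSG00000026335, minus strand, chr1:97795114-98095646) was at 781 ± 155 CPM in GFP and 745 ± 124 CPM in DN libraries (SD, n = 10; log2 -0.06, SE 0.06, edgeR adjusted p = 0.649). For both genes the spread between cultures exceeded the difference between conditions. The gene B230216N24Rik shares 188 exonic bases with Pam on the same strand, and its own counts, at most 203 in a library, cannot be fully separated from those of Pam.

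Adjusted for length, Scg3 and Scg2 stood higher in the order of the 10 genes in DN than in GFP libraries and Vgf stood lower. In GFP libraries, the mean levels in CPM per kb of exon were 229 for Cpe, 73.6 for Vgf, 65.7 for Pam, 57.2 for Scg3, 45.6 for Scg2, 11.6 for Pcsk2, 11.3 for Chga, 8.65 for Scg5, 5.82 for Pcsk1 and 2.42 for Chgb. Only Cpe stood apart from its next neighbour Vgf, and Scg2 from Pcsk2; the ranges of all other neighbours overlapped. In DN libraries the same quantity was 227 for Cpe, 137 for Scg3, 72.2 for Scg2, 62.6 for Pam, 40.2 for Vgf, 13.6 for Chga, 10.7 for Pcsk2, 8.94 for Scg5, 2.65 for Pcsk1 and 2.45 for Chgb. Scg3 was second to Cpe in mean level there, below Cpe in each of the 10 DN libraries, and above Scg2 in each of them. Vgf stood apart from Chga and Scg5 from Pcsk1, while Pcsk1 and Chgb were at overlapping levels, with Pcsk1 higher in 6 of 10 DN libraries. Untransduced libraries kept the GFP order, from 219.7 CPM per kb for Cpe to 1.79 for Chgb.

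The vector control alone did not move these genes past the threshold. Between GFP and untransduced libraries no gene passed (0% of all genes tested by edgeR, 0 by DESeq2), with 373 genes and 1 of the 10 members at an unadjusted p under 0.05. That member was Pcsk1, with a log2 difference of 0.19 (SE 0.09, unadjusted p = 0.0475 and adjusted p = 0.998 by edgeR), higher with GFP in 7 of 10 cultures. Between DN and untransduced libraries, 13.2% of all genes and 5 of the 10 members passed. Scg2, Scg3 and Chga were higher and Pcsk1 and Vgf lower; both comparisons use the same DN libraries and are not independent of each other. Chgb had a log2 difference of 0.31 (SE 0.20, edgeR adjusted p = 0.353) and the other 4 uncalled members lay between -0.13 and 0.07. With untransduced replicate 4 left out, 5 members passed between DN and GFP, 5 between DN and untransduced, and 0 between GFP and untransduced libraries, while the count of all genes between DN and GFP went from 2054 to 3239.

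Within the plain set, 4 of the 10 genes passed between DN and GFP, against 8.00% of all genes. Scg3 rose 3.36-fold there (log2 1.75, SE 0.22, edgeR adjusted p = 8.56e-06) and Scg2 1.62-fold (log2 0.70, SE 0.20, edgeR adjusted p = 0.0292). Pcsk1 fell 2.595-fold (log2 -1.38, SE 0.16, edgeR adjusted p = 4.81e-06) and Vgf 2.50-fold (log2 -1.32, SE 0.17, edgeR adjusted p = 1.05e-05). DN and GFP libraries of these 4 genes did not overlap in this set, and the same was so of Chga and Pam, which did not pass. The call of Scg2 was lost without replicate 1, 2 or 3 (adjusted p = 0.145, 0.205 and 0.165). When the plain libraries were fitted alone, 7 members passed, adding Chga (log2 0.24), Cpe (log2 -0.17) and Pam (log2 -0.23).

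Within the 7DIV set, 4 members passed against 2.61% of all genes. The log2 differences were 1.23 for Scg3 (SE 0.22, edgeR adjusted p = 0.00317), 0.77 for Scg2 (SE 0.20, adjusted p = 0.0372), -1.08 for Pcsk1 (SE 0.16, adjusted p = 7.80e-04) and -0.62 for Vgf (SE 0.16, adjusted p = 0.0435). DN and GFP libraries of these 4 genes did not overlap here either, nor did those of Cpe, which did not pass. The calls of Scg2 and Vgf were lost when any of replicates 1 to 9 was left out in all 3 conditions (adjusted p = 0.0515 to 0.366 for Scg2 and 0.0525 to 0.165 for Vgf). Fitted alone, the 9 libraries of this set gave 0 members and 10 genes, at log2 differences of 1.23 for Scg3 and -1.08 for Pcsk1. With untransduced replicate 4 also left out, an alternative added after seeing the data, they gave 4 members (Scg2, Pcsk1, Vgf and Cpe, the last at log2 0.19) and 1709 genes, with Scg3 at log2 1.18 and an adjusted p of 0.0682.

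Within the dated set, 3 members passed against 3.16% of all genes: Scg3 (log2 0.91, SE 0.19, edgeR adjusted p = 0.00529), Pcsk1 (log2 -0.98, SE 0.14, adjusted p = 1.88e-04) and Vgf (log2 -0.83, SE 0.14, adjusted p = 0.00115). Scg2 was higher with DN in 4 of 4 cultures at log2 0.53 and did not pass (SE 0.17, edgeR adjusted p = 0.116). Pcsk2 was lower with DN in 4 of 4 cultures at log2 -0.34, likewise without passing (SE 0.12, edgeR adjusted p = 0.145). Scg3 and Pcsk1 did not overlap between DN and GFP libraries in this set, and the other members did. The call of Scg3 was lost in 1 of 17 alternatives, while Scg2 and Pcsk2 each passed in 1. Pcsk1 and Vgf passed in all 17.

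**Figure D3:**
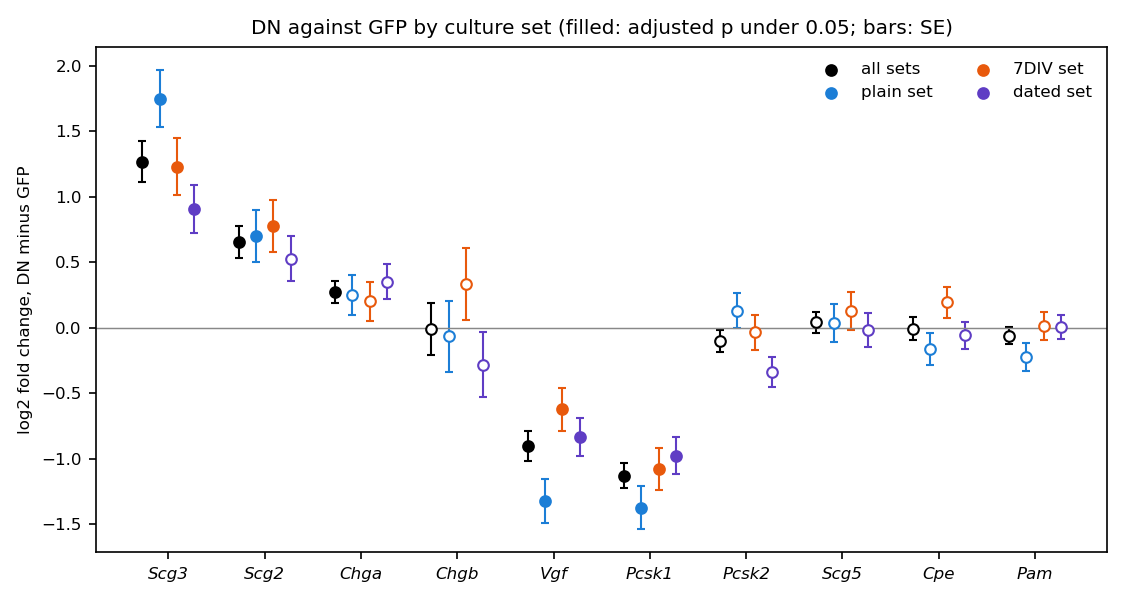
Log2 fold change from GFP to DN for each of the 10 genes, over all sets and within each culture set, with SE bars and filled points where the adjusted p was under 0.05. Scg3 ran from 0.91 (dated) to 1.75 (plain), Vgf from -1.32 (plain) to -0.62 (7DIV), and Pcsk1 lay near -1 or below in all 3 sets.

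Whether the DN effect differed between sets was tested directly. For that difference 0.365% of all genes and none of the 10 members passed by edgeR (66 genes, 1722 at an unadjusted p under 0.05). The smallest p among members belonged to Vgf (unadjusted p = 0.0193, adjusted p = 0.393), Scg3 (0.0237 and 0.417) and Pcsk2 (0.0414 and 0.496). The plain set held the largest estimates for Scg3, Pcsk1 and Vgf, but those differences between sets did not pass. Without untransduced replicate 4, Cpe passed and was the only member to do so.

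The same genes set against untransduced libraries within each set gave 4 calls in the plain set (Scg2, Scg3, Pcsk1 and Vgf, against 8.58% of all genes) and 3 in the dated set (Scg3, Pcsk1 and Vgf, against 3.13%). In the plain set the call of Scg2 was lost in 2 of 17 alternatives. Pcsk2 did not pass in the dated set (log2 -0.40, SE 0.12, edgeR adjusted p = 0.0671) but passed in 7 of 17 alternatives there. Scg3 lost its call in 2 of those 17, and Scg2 passed in 2. In the 7DIV set 5 members passed against 22.3% of all genes. These were Scg2, Scg3, Chgb, Cpe and Pcsk1. Of 18 alternatives, 3 lost the call of Chgb, 2 that of Scg2, 2 that of Scg3, 1 that of Cpe and 1 that of Pcsk1. Without the shallow untransduced library, Chgb went from log2 1.22 (SE 0.29) to 0.93 and Cpe from log2 0.52 (SE 0.12) to 0.26. Vgf was at log2 -0.39 with that library (edgeR adjusted p = 0.0897) and at -0.65 without it (adjusted p = 0.0112). No member passed between GFP and untransduced libraries in any set, against 0% of all genes in the plain and dated sets (0 genes by edgeR and by DESeq2, with 355 and 145 at an unadjusted p under 0.05) and 0.288% in the 7DIV set. In the 7DIV set, which holds the shallow library, 2952 genes and 4 members were at an unadjusted p under 0.05 by edgeR. Of these members, Chgb (log2 0.89), Scg3 (log2 0.51) and Cpe (log2 0.33) were higher with GFP and Scg5 (log2 -0.32) was lower.

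The culture sets themselves differed in most members when A-Fos was absent. On counts summed per culture over its GFP and untransduced libraries, 8 of 10 members passed across the 3 sets, a share to be read against 57.5% of all 20343 genes tested; Scg2 (adjusted p = 0.121) and Vgf (adjusted p = 0.126) did not. The call of Scg5 was lost in 8 of 14 alternatives (adjusted p = 0.0173 to 0.286 over all 14): without the low-count filter, on GFP libraries only, and without replicate 2, 3, 5, 6, 7 or 10. That of Scg3 was lost without replicate 2 or 3 (adjusted p = 0.109 and 0.0735). Vgf passed without replicate 7 and on untransduced libraries only, leaving out number 4 (adjusted p = 0.0491 and 0.00592). Pam was lower in the 7DIV than in the plain set (log2 -0.79, SE 0.06) and Pcsk2 higher (log2 0.60, SE 0.07). Chga and Pcsk1 were lower in the dated than in the 7DIV set, by log2 -0.67 (SE 0.09) and -0.80 (SE 0.10). For Pcsk1 the difference between DN and GFP was log2 -1.13. Time in culture, preparation and sequencing run cannot be told apart in these set differences.

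The rest of the pathway was examined in 6 lists of other genes, whose counts stand beside the 11.4% of all genes called between DN and GFP. None of 7 other proprotein convertases passed between DN and GFP libraries, their median log2 difference being -0.09. Furin, the general convertase of the trans-Golgi network, was at log2 -0.12 (SE 0.06, edgeR adjusted p = 0.214). Of 13 genes for end processing, amidation cofactors and inhibitors, 1 rose and 1 fell (median -0.03): the protease Ctsl, which can also cut prohormones in granules, rose (log2 0.31, SE 0.08, edgeR adjusted p = 0.00873), and Pcsk1n fell as given above. This count of 2 became 6 (4 higher and 2 lower) without untransduced replicate 4, 5 without replicate 4 in all conditions and 5 on DN and GFP libraries only, settings under which 3239, 3039 and 2980 of all genes were called.

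Among 25 genes of granule biogenesis and sorting, 2 rose and 2 fell, and the median was -0.0035. Ptprn, a transmembrane protein of the granule membrane, fell (log2 -0.51, SE 0.05, edgeR adjusted p = 3.57e-07), as did Tmem163, a zinc transporter of vesicles (log2 -0.56, SE 0.14). Ica1l and Arfip2, which contain related membrane-curving domains, rose by log2 0.49 and 0.17 (SE 0.12 and 0.04). Ptprn2, a near relative of Ptprn, was at log2 0.14 and did not pass (SE 0.12, edgeR adjusted p = 0.588).

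Of 30 genes of granule docking, priming and release, 7 rose and 4 fell, and the median was 0.16. These 11 calls became 6 without replicate 1, 7 without replicate 2, and 18 on DN and GFP libraries only. The small GTPase Rab27b, which tethers granules at the plasma membrane, rose 2.34-fold (log2 1.23, SE 0.11, edgeR adjusted p = 4.77e-08). Syt7, a high-affinity calcium sensor of release, rose 1.73-fold (log2 0.79, SE 0.10), and Cadps2, a priming factor of dense core granules, rose 1.91-fold (log2 0.93, SE 0.13). Sytl2, a Rab27 effector, fell 1.41-fold (log2 -0.50, SE 0.06). The general release genes Snap25 and Stx1a were at log2 0.21 and 0.20 and did not pass (edgeR adjusted p = 0.0960 and 0.0924).

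Peptide precursors, the kind of cargo that this pathway processes, held 9 calls in 19 tested genes of 28, with 5 higher and 4 lower and a median of -0.08. Tac1, the precursor of substance P, rose 4.89-fold (log2 2.29, SE 0.20, edgeR adjusted p = 4.77e-08), and Calca, the precursor of calcitonin gene-related peptide, rose 2.22-fold (log2 1.15, SE 0.15). Nts, the neurotensin precursor, fell 5.78-fold (log2 -2.53, SE 0.27) and Ucn, the urocortin precursor, fell 17.1-fold (log2 -4.10, SE 0.53). Called precursor genes thus lay in both directions. Of 10 regulators of granule genes 1 rose and 1 fell (median -0.06): Insm1, a zinc finger factor of neuroendocrine differentiation, rose (log2 0.73, SE 0.16) and Crem, a CRE-binding factor, fell (log2 -0.49, SE 0.08). Rest, the repressor of many neuronal genes, was at log2 -0.13 (SE 0.06, edgeR adjusted p = 0.247) and Creb1 at -0.03 (SE 0.06, adjusted p = 0.861).

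**Figure D4:**
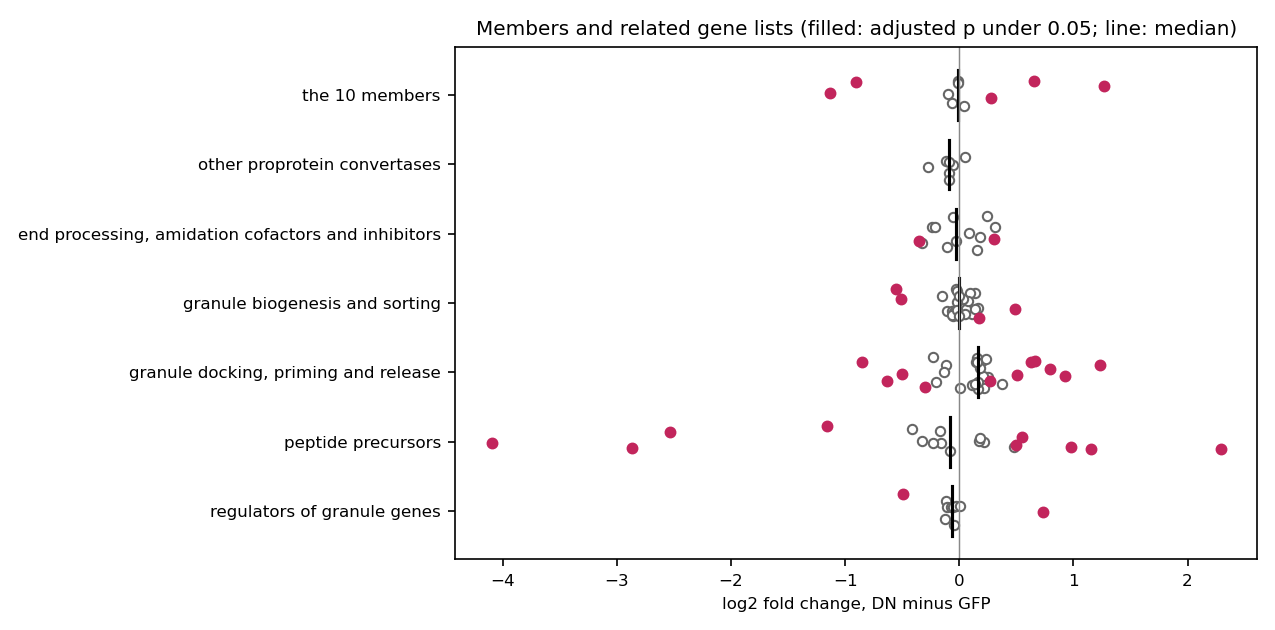
Log2 fold change from GFP to DN for the 10 members and for the tested genes of 6 related lists, each point 1 gene, filled where the adjusted p was under 0.05, with a line at the median of each list. Called genes lie on both sides of 0 among the members, the peptide precursors (-4.10 to 2.29) and the docking and release genes, and no other proprotein convertase is filled.

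Markers of the cells in these cultures were read beside the members. Of 13 sensory neuron markers, 5 rose (Avil, Prph, Elavl4, Isl1 and Scn10a) and 2 fell (Tubb3 and Nefl) from GFP to DN, with a median of 0.21. These 7 calls are 53.8% of the markers, beside 11.4% of all genes. They became 6 without replicate 1 and 10 on DN and GFP libraries only. The summed level of the 13 markers ran from 2869 to 5112 CPM in GFP, from 3198 to 5556 in DN and from 3134 to 5479 in untransduced libraries. Scg3 and Scg2 thus rose in libraries where several, but not all, neuron markers were higher too, and the part of this shift in their rise was not tested. Pcsk1 and Vgf fell in the same libraries.

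Markers of other cells were read likewise. Glul fell among 7 satellite glia markers, Egr2 among 8 Schwann cell markers and Csf1r among 6 tested macrophage markers. These are 14.3%, 12.5% and 16.7% of each list, beside 11.4% of all genes. None of 6 tested fibroblast or 6 tested endothelial and mural markers passed. The call of Egr2 was lost without the replicate block and without replicate 1, 2, 7 or 9. That of Csf1r was lost without the low-count filter, without the block and without replicate 1, 3, 6, 7 or 9. Over the alternatives, satellite glia held 1 or 2 calls, and 1 endothelial and mural marker passed without replicate 9. Summed levels in GFP and DN libraries overlapped for each list, for example 566 to 1217 against 543 to 1070 CPM for satellite glia, 1390 to 2695 against 1095 to 2649 CPM for Schwann cells and 3273 to 5801 against 3317 to 6482 CPM for fibroblasts. The same sums were 10.8 to 21.98 against 10.8 to 16.3 CPM for macrophages and 274 to 774 against 269 to 642 CPM for endothelial and mural cells. Chromaffin and sympathetic cells, which are rich in granins, left little trace: their 6 markers together reached 18.5 CPM at most in any library, and neither of the tested markers Th and Slc18a1 passed.

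Across the 30 libraries, after the mean of each culture was taken off log2 CPM, Gnao1 (Pearson r = 0.989), Synm (0.982) and Luzp2 (0.981) followed Scg3 most closely, and Draxin (0.953), Camkk1 (0.953) and Ptpro (0.952) followed Pcsk1. These r values describe libraries that share the difference between conditions as well as depth. Gnao1, a G protein subunit abundant in neurons, had a log2 difference of 0.72 between DN and GFP (SE 0.09) and Draxin, a secreted axon guidance factor, one of -1.98 (SE 0.16). Camkk1, a kinase that activates calcium/calmodulin-dependent kinases, was at log2 -0.83 (SE 0.07).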

How the data were processed

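Gene values were raw read counts per Ensembl gene as deposited, with no normalization found in the table; bcl2fastq 2.17, STAR, HTSeq and GRCm38/mm10 are named in the submitters' processing notes. The settings of these tools, the strand and the annotation were not given in the sources used here. A second deposited table held read counts per short genomic interval: after intervals on exons were left out it held sums for 15808 genes, of which 1960 passed the filter and none was a member, so it gave no test.

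Symbols came from GENCODE M21 (48349 of 48795 identifiers). The filterByExpr function of edgeR 4.0.16 (R 4.3.3) kept 18063 of 33717 genes with any count, by condition; these were scaled by TMM and fitted with robust quasi-likelihood models over 30 libraries with the replicate number as a block. Set-specific effects and their difference came from 1 model with a condition effect per set. Levels per kb used the exon length of GENCODE M21. Differences between sets in controls used counts summed per culture. DESeq2 1.42.0 was an alternative. The main edgeR fits of condition were first tested on simulated data that held no differences between cultures. The other fits were not tested in this way.

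The pairing of libraries comes from the series design. In the counts, 8 of 30 same-number pairs correlated above 0.1 (median r 0.063, range -0.054 to 0.335). With the replicate block, p-values between conditions cover how the condition difference varied from culture to culture, not the spread of levels between cultures. Those for set differences in controls cover the spread of levels between cultures.

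The members, lists and tests were chosen with earlier results of these data known. Named were all members, up to 4 called genes per pathway list with the smallest p, and the 3 genes most like the members with the largest rise and fall (mean of at least 2 log2 CPM). Uncalled list genes and cell type markers named in the text were chosen after their values were seen. Alternatives changed the scaling, the filter, the block, the tool and the libraries used.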

Additional observations from a re-analysis of the deposited data

Results flagged for a closer look

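Among 60 groups of 4 to 10 libraries (each member in each condition, over all sets and in the dated set), 4 held a library far from the others, and chance gives about 1 in 20. In untransduced libraries, Scg5 was at 23.5 CPM in replicate 4, above the next at 17.0 CPM, and Cpe was at 278 CPM in the same library, below the next at 514 CPM. That library is the shallow one with high Malat1. Chgb was at 8.51 CPM in untransduced replicate 1, above the next at 5.39 CPM. Cpe was at 607 CPM in DN replicate 7 of the dated set, below the other 3 DN libraries of that set, which lay between 638 and 644 CPM.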

How the results depend on the processing

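Scg2, Scg3, Pcsk1 and Vgf kept their direction and passed between DN and GFP in all 17 alternatives and against untransduced libraries in all 16, with log2 differences from GFP of 0.58 to 0.70, 1.18 to 1.35, -1.16 to -1.07 and -0.95 to -0.85. No called value of a member turned its direction. The number of genes called between DN and GFP ran from 1441 to 3239 when libraries were left out, and 70.2% of called genes were higher with TMM, 63.1% with median-ratio and 57.1% with upper-quartile scaling; the median of all genes was at -0.035 with upper-quartile scaling, the furthest from 0. Without the replicate block, 5 members passed between DN and GFP over all sets and 2 in the 7DIV set, where leaving out replicates gave 2 to 5; Scg2 also missed the threshold in the plain set (adjusted p = 0.102). Without the low-count filter, the members called were 5 for DN against GFP and 5 for DN against untransduced in the dated set, 2 (Scg3 and Chgb) for GFP against untransduced in the 7DIV set, and 2 (Scg3 and Vgf) for the difference between sets, which ran from 0 to 1 when libraries were left out. Fitting each set alone gave 7 members for both DN comparisons in the plain set and 0 for both in the 7DIV set. The cause of these shifts was not tested. The replicate block changed no other call of a member over all sets. The planned test on interval counts and its alternatives gave no value, since no member passed the filter there. Depth was lowest in untransduced replicate 4, where Chgb had 26 counts.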
